A study of Mus musculus with 2 samples.

Results

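The 34 genes described here are the miRNA genes counted on the plus strand of mouse chromosome 12 between positions 109709060 and 109747960 of the mm10 build, from Mir379 to Mir3072. The rule for them uses position and strand and no measured value, although the stretch was picked with earlier results of these data known. Its gene coordinates are from GENCODE release M21, and the members are 34 of 1973 counted genes. Small RNA came from the forebrain of mouse embryos of strain B6NCrl at 10.5 days, both sexes mixed, with no genotype or treatment named. There was 1 group of 2 libraries, so no condition was compared. Replicate 1 was a pool of 69 embryos with 3256070 gene counts, and replicate 2 a pool of 51 embryos with 3574530. The labels give the pools as separate biological samples, and the SD below measures the spread between these 2 pools only. The p-values below set one pool against the other and cover counting error only.

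The Dlk1-Dio3 region is imprinted, and its non-coding RNAs, among them this run of miRNA hairpins, are made from the maternal chromosome. The hairpins are thought to be cut from long precursor transcripts, and many have related sequences. In the brain the cluster is best known from neurons, where Mef2 raises it after activity. miR-134 and miR-329 are known from the shaping of dendrites, and miR-369, miR-496 and miR-543 from the control of N-cadherin in neural progenitors.

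The labelled tissue was checked against marker miRNAs. Summed progenitor markers (Mir92b and the counted Mir9 genes) reached 19776 CPM in replicate 1 and 17368 CPM in replicate 2, where CPM is counts per 1000000 gene counts of the library. Nearly all of that sum was Mir92b, with 63192 and 60939 counts. Mir9-3 had 1182 and 1125 counts, and Mir9-2 had 19 and 19. The endothelial marker Mir126a had more than the progenitor sum, 29029 and 31930 CPM. Neuronal markers summed to 619 and 450 CPM, erythroid markers to 661 and 760 CPM, hindbrain and trunk markers to 237 and 297 CPM, and the liver miRNA Mir122 had 10.7 and 9.79 CPM. The 4 matched muscle markers summed to 2.76 and 2.24 CPM, all from 1 gene, and Mir1a-1, Mir133a-1 and Mir133a-2 had no count. Several progenitor, neuronal and muscle markers, and miR-196a of the hindbrain and trunk list, are made from more than 1 locus. A read with several mapping places entered no gene's count, so the sums of these 4 lists are lower limits.

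Mature sequences were found in the RefSeq miRNA table (build GRCm38.p6) for 33 of the 34 genes, 61 sequences in all, and Gm27379 had none. For Mir376c, Mir487b, Mir539, Mir485 and Mir453 only 1 arm was listed. What an unlisted arm shares with other miRNAs is not seen here. None of the 61 was identical to a mature sequence of another gene in that table. The files count reads per hairpin and do not separate its 5p and 3p arms. The first set below shows a seed pattern found in 12 members. In capitals is the seed, bases 2 to 8 from the 5′ end, which pairs with target mRNAs. In these members the seed of the 5p arm, or of the single listed arm of Mir453, reads GGUNNNC (N is any base, the given strand only).
miR-379-5p: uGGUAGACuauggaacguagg
miR-1193-5p: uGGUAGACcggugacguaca
miR-758-5p: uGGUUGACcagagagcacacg
miR-1197-5p: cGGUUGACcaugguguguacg
miR-412-5p: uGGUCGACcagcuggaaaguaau
miR-323-5p: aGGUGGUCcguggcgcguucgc
miR-494-5p: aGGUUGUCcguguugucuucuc
miR-410-5p: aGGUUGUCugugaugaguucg
miR-487b-5p: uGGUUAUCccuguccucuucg
miR-496a-5p: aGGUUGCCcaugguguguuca
miR-453: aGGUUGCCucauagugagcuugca
miR-654-5p: uGGUAAGCugcagaacaugugu

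That pattern filled the seed in 12 of 33 members with a sequence, or 36.4%, against 6 of the other 1025 genes in the table, or 0.585%. The 6 include Mir299a and Mir409, which lie inside the stretch but were not counted as genes of their own, and Mir341 further upstream in the same region. Anywhere in a mature sequence the pattern was found in 69.7% of the members and 8.98% of the other genes. The pattern was picked after the sequences were seen, so these shares are a description. The 12 genes held 37.1% ± 0.36 (SD, n = 2) of the counts of the stretch and ran from 0 counts for Mir453 and Mir654 to the most abundant member, Mir487b. These are counts per hairpin, so they do not give the share of reads that carry the pattern.

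Among the listed arms, 5 of 56 different seeds were shared exactly by 2 members, and each of the 5 joined a pair. Unlisted arms could add to this count. The seed GGUAGAC joined miR-379-5p and miR-1193-5p, the seed GGUUGAC joined miR-758-5p and miR-1197-5p, and GGUUGUC joined miR-494-5p and miR-410-5p. GGUUGCC joined miR-453 and miR-496a-5p. The fifth, AUGUAAC, joined the 3p arms of the neighbours Mir379 and Mir411, whose 5p seeds differ. Both arms of Mir411, the 3p arm of Mir379 with its shared seed, the arms of other abundant members, the 5p arm of Mir376c as the single counted member of its family, and the 3p arms of the pair with the most alike hairpins read as follows, with the seed in capitals.
miR-411-5p: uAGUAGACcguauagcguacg
miR-411-3p: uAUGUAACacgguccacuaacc
miR-379-3p: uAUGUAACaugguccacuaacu
miR-369-5p: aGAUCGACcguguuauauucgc
miR-369-3p: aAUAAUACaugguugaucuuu
miR-541-5p: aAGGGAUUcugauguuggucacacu
miR-541-3p: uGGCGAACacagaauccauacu
miR-382-5p: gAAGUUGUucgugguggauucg
miR-382-3p: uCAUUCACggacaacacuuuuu
miR-376c-5p: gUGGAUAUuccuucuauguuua
miR-543-3p: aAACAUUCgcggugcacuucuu
miR-495-3p: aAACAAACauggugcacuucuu

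The stretch held 236659 counts in replicate 1, which is 7.27% of the gene counts (95% exact Clopper-Pearson interval 7.24 to 7.30), and 304856 counts in replicate 2, or 8.53% (8.50 to 8.56). With reads mapped to several places or to no gene in the total, the mean share was 3.95% in place of 7.90%. The intervals cover counting error only, and since PCR copies are not independent molecules they can be too narrow even for that. The share was higher in replicate 2, and these intervals did not overlap. In bulk tissue fewer cells that make these miRNAs and less of them per cell cannot be told apart.

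Levels within the stretch spanned more than 3 orders of magnitude, and the order was nearly the same in both libraries (Spearman's rho across the 34 genes was 0.995, a description). At 1000 CPM or more stood 14 members, 14 others lay between 100 and 1000 CPM and 6 below 100 CPM. CPM was not divided by gene length, since a read of this size class covers a mature miRNA and not the hairpin. Of the 34 genes 31 had a mean count of 10 or more and entered the tests. Their median was 606 ± 72 CPM, beside 159 ± 2.0 CPM for all 401 genes that passed the same minimum.

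Mir487b of the miR-154 family (chr12:109727333-109727414) was the highest member, with 14220 CPM in replicate 1 and 16881 CPM in replicate 2. Mir411 (chr12:109710175-109710256) had 10308 and 13299 CPM. Mir369, a miRNA known from N-cadherin control (chr12:109743418-109743496), had 9637 and 10963 CPM. Mir487b was above both in each library. Mir411 was above Mir369 in each library, but their ranges over the libraries overlapped. These 3 genes held 47.6% ± 0.87 of the counts of the stretch, the 5 highest held 64.2% ± 0.92 and the 10 highest 85.0% ± 0.10 (SD, n = 2). Mir541 (7911 ± 1104 CPM) was the fourth, and Mir379 (5191 ± 411 CPM) and Mir382 (5067 ± 90 CPM) came next and did not differ beyond their spread.

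At the other end, Mir654 (chr12:109723218-109723301) and Mir453 (chr12:109735619-109735700) had no count in either library, which allows up to 0.921 CPM in replicate 1 and 0.839 CPM in replicate 2. Gm27379 (chr12:109728821-109728943), an annotated hairpin without a miRNA name, had 5 and 8 counts. Mir544 had 18 and 21 counts and was the lowest member that entered the tests. Mir487b exceeded Mir544 by 2723 ± 213-fold (SD, n = 2). With so few counts of Mir544, the counting error of this ratio can be larger than that spread. Undetected and well detected genes lay side by side: Mir453 stands between Mir485 (546 ± 32 CPM) and Mir154 (2290 ± 401 CPM).

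**Figure D1:**
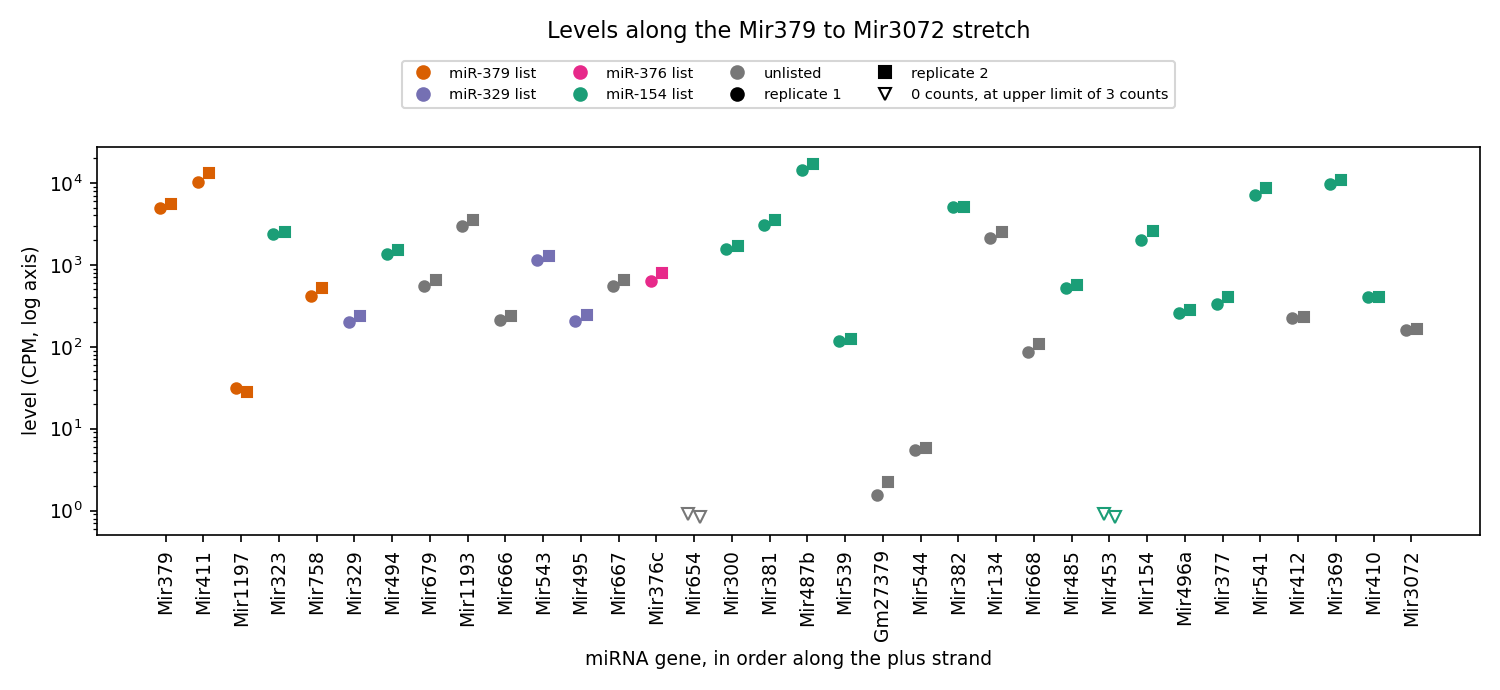
Level of each of the 34 members in CPM (log axis), in order along the plus strand; circles are replicate 1, squares replicate 2, colours the subfamily lists, and open triangles mark genes without a count at the upper limit that 3 counts set. High and low members alternate from Mir379 to Mir3072, and the 2 libraries lie close together for each gene.

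High members were found at both ends of the stretch and in its middle. Spearman's rho of level with position was −0.14 across the 34 members, given as a description, since neighbours share their libraries and precursor. The first 12 members, Mir379 to Mir495, held 34.3% ± 0.50 of the counts, the middle 11, Mir667 to Mir134, held 37.1% ± 0.53, and the last 11, Mir668 to Mir3072, held 28.6% ± 0.029 (SD, n = 2). The count of members at 1000 CPM or more was 6, 5 and 3 in that order. The first gene of the stretch, Mir379 (chr12:109709060-109709125), had 4900 and 5481 CPM. The last, Mir3072 (chr12:109747878-109747960), had 160 and 163 CPM.

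Hairpins next to each other often differed widely, as did pairs of members in general. Among 27 pairs of adjacent tested members the median difference was 5.45-fold, beside 5.66-fold for all 465 pairs of tested members. In 10 of the 27 pairs the levels differed by more than 10-fold, and in 25 by more than 2-fold. Of all 465 pairs 177 differed by more than 10-fold and 373 by more than 2-fold. The pairs named next were picked after their values were seen. Mir412 and Mir369 lie 49 bp apart, and Mir369 was 43.5-fold higher in replicate 1 and 46.9-fold higher in replicate 2. Across 218 bp on its other side lies Mir410, at 406 and 408 CPM, which Mir369 exceeded by 23.7-fold and 26.9-fold. Mir1197 and Mir323 are 71 bp apart, with Mir323 76.8-fold and 91.0-fold higher. At the shortest gap, 20 bp between Mir679 and Mir1193, Mir1193 was 5.39-fold and 5.51-fold higher.

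**Figure D2:**
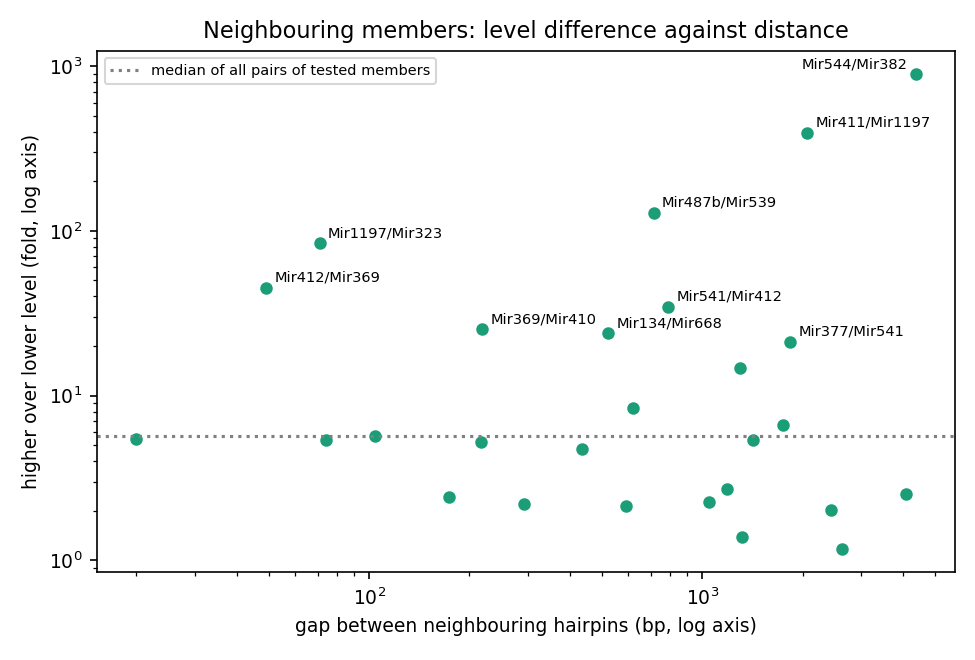
Each point is a pair of adjacent tested members, with the gap between their hairpins in bp (log axis) and the ratio of the higher to the lower level, mean of 2 libraries (log axis); the dotted line is the median of all pairs, 5.66-fold. Pairs at short and long gaps lie on both sides of the line.

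The annotation places the later members in a known host. Of the 34 genes 13, from Mir382 onward, lie within Mirg, a long non-coding RNA gene at chr12:109729764-109749460 on the plus strand. Mir382, Mir134, Mir668, Mir485, Mir377, Mir412, Mir369, Mir410 and Mir3072 overlap an exon of at least 1 Mirg transcript. Mir453, Mir154, Mir496a and Mir541 lie in introns, and the 21 genes from Mir379 to Mir544 overlap no annotated host transcript on their strand. Both high and low members were found in exons, such as Mir369 and Mir668 (96.8 ± 15 CPM), and in introns, such as Mir541 and Mir453.

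The miR-154 list, the largest by number, held most of the counts. Its 15 counted members summed to 51643 ± 5245 CPM, which is 65.4% ± 0.74 of the stretch (SD, n = 2), and 9 of them reached 1000 CPM. Behind Mir487b, Mir369, Mir541 and Mir382 came Mir381 (3276 ± 361 CPM), Mir323 (2465 ± 116 CPM), Mir154 (2290 ± 401 CPM), Mir300 (1625 ± 120 CPM) and Mir494 (1443 ± 127 CPM). Mir485, Mir410, Mir377, Mir496a, Mir539 and Mir453 lay lower, from 546 ± 32 CPM for Mir485, known from synaptic genes, to no count.

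The miR-379 list held 22.1% ± 0.80 of the stretch with 4 counted members at the start of the run. Most of it came from 2 genes, Mir411 and Mir379. Mir758 had 470 ± 75 CPM and Mir1197 29.5 ± 2.2 CPM, although Mir758 and Mir1197 share a 5p seed. With the highest member of every list left out, the share of the miR-379 list was 12.3%. Its 6 pairs of hairpins had a median identity of 75.5%, beside 64.7% for 351 pairs of different lists or unlisted members. The median was 68.9% in the miR-154 list and 68.4% in the miR-329 list. The most alike pair of the miR-379 list, Mir379 and Mir411, had 80.3%. Mir1197 had more, 81.0% each, with Mir496a of the miR-154 list and Mir495 of the miR-329 list. Identity is the share of matched bases over the shorter hairpin in a global alignment, here over the 31 members with a RefSeq hairpin. By this measure a long hairpin has more places to match a short one. Mir1197 has 120 bases against 79 in Mir496a and 63 in Mir495, so its values do not show a closer relation.

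The miR-329 list was small. Mir543, known from N-cadherin control, had 1135 and 1263 CPM, Mir495 had 205 and 242 CPM and Mir329 had 201 and 238 CPM. Mir543 was higher in both libraries, and the ranges of Mir495 and Mir329 overlapped. The 3 genes held 2.08% ± 0.054 of the stretch, or 0.951% with the highest member of every list left out. Mir543 and Mir495 had the most alike hairpins of all 465 pairs, with 84.1% identity, and different seeds in each arm.

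The miR-376 list had 1 counted member. Mir376c, of a family whose precursors are known substrates of A-to-I editing in the brain, had 635 and 786 CPM, which is 0.898% ± 0.034 of the stretch. Mir376a and Mir376b were not counted as genes of their own, so this share is that of Mir376c alone. The 11 members outside these lists held 9.49% ± 0.034 (SD, n = 2). Their highest were Mir1193 (3271 ± 390 CPM) and Mir134, known for limiting dendritic spine size through Limk1 (2304 ± 249 CPM). Mir667, Mir679, Mir412, Mir666, Mir3072, Mir668 and Mir544 ranged from 604 ± 75 down to 5.70 ± 0.25 CPM.

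**Figure D3:**
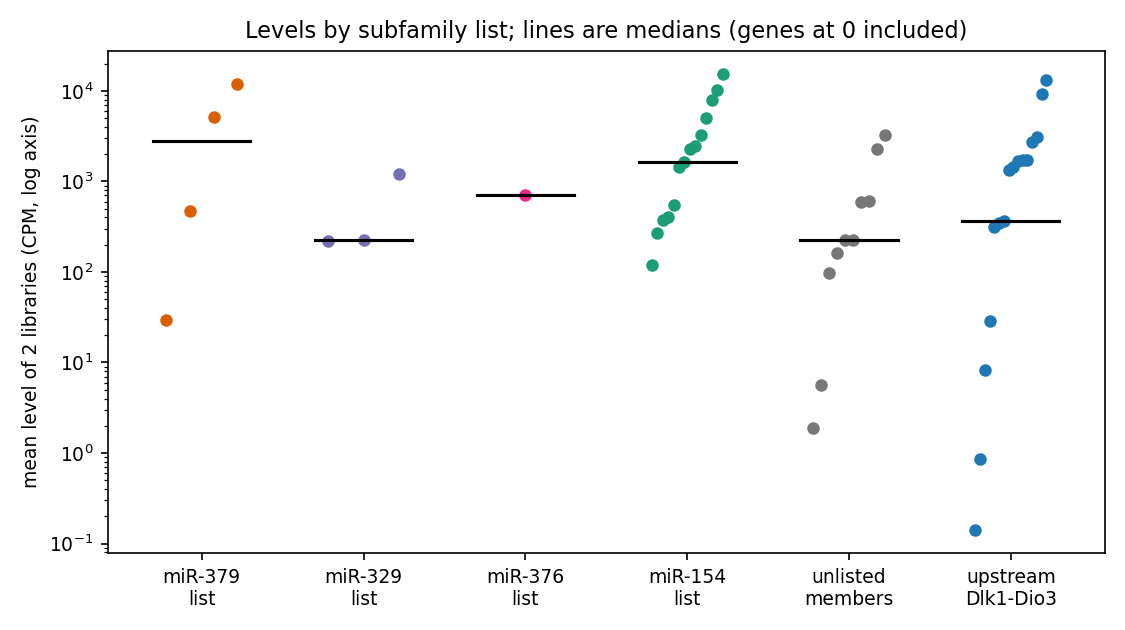
Mean level of the 2 libraries in CPM (log axis) for each counted member by subfamily list, with the 19 miRNA genes of the upstream Dlk1-Dio3 region beside them; each point is a gene, lines are medians, and genes at 0 enter the median but are not drawn. The miR-154 list runs from 120 CPM for Mir539 up to 15551 CPM for Mir487b.

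The upstream miRNA genes of the same imprinted region, 19 on the plus strand before Mir379, gave a yardstick. Their share of all gene counts was 3.46% in replicate 1 and 4.003% in replicate 2. Counts of the stretch exceeded theirs by 2.10-fold in replicate 1 and 2.13-fold in replicate 2, so the balance of both runs was nearly the same in the 2 pools. Per gene the order depended on the count minimum. The median of the 14 tested upstream genes was 1525 ± 107 CPM, against 606 ± 72 CPM for the 31 tested members. With untested genes kept in, the middle one of the 19 upstream genes by level was Mir770, at 369 ± 59 CPM. The median over all members was then higher, at 572 ± 49 CPM. The highest upstream genes were Mir431 (13330 ± 1630 CPM) and Mir127 (9170 ± 883 CPM). Mir431 lay between Mir411 and Mir487b in level, and Mir127 between Mir541 and Mir369.

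Most tested members were lower in replicate 1. By an exact two-sided binomial test, adjusted over 401 genes by the Benjamini-Hochberg method, 25 of the 31 tested members were lower in replicate 1 and none was higher, also at an unadjusted p of 0.05. Over all genes tested, members included, 23.7% were lower and 19.7% higher in replicate 1, 43.4% in all. Of the 356 tested genes outside the stretch and the upstream region, 59 (16.6%) were lower and 78 higher, with a median log2 ratio of −0.00036. Genes with more counts pass this test more readily. At a mean count of 100 or more, 32.5% of all tested genes were lower. With total-count scaling the balance over all 401 genes turned, to 84 lower and 93 higher with a median log2 ratio of 0.0034, while 23 members were lower and none higher. The test sets one pool against the other, not conditions, and its p-values carry no error beyond counting. The median log2 ratio of replicate 1 over replicate 2 was −0.22 in the members, beside −0.03 over all tested genes, and 30 of the 31 ratios were below 0. In the upstream genes 11 of 14 tested were lower and 1 higher, with a median of −0.26.

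Mir411 had 33565 counts in replicate 1 and 47537 in replicate 2, the lowest log2 ratio among members at −0.40. Mir154, with 6532 and 9197 counts, was next at −0.39 (adjusted p = 5.2e-62, exact binomial test). The highest ratios were those of Mir1197, at 0.12 with 101 and 100 counts (adjusted p = 0.75, exact binomial test), and of Mir410, at −0.04 with 1323 and 1457 counts (adjusted p = 0.71, exact binomial test). Mir539, Mir544, Mir412 and Mir3072 also did not pass the test, with ratios between −0.12 and −0.05. A ratio that missed the threshold does not show an equal level.

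The direction of the difference was shared by the lists. The median log2 ratio was −0.27 in the miR-379 list, −0.27 in the miR-329 list, −0.20 in the miR-154 list and −0.24 in the unlisted members, and Mir376c had −0.34. The most abundant members held these parts of the stretch. Mir487b held 19.6% of its counts in replicate 1 and 19.8% in replicate 2, Mir369 held 13.3% and 12.9%, and Mir411 held 14.2% and 15.6%. Rank correlation of the ratio with position was 0.19 across the 31 genes, as a description.

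Some markers also differed between the pools, where 43.4% of all tested genes were called, 19.7% higher and 23.7% lower in replicate 1. Tested neuronal markers had a median log2 ratio of 0.31, with 3 of 5 higher in replicate 1 and none lower. The 3 were Mir137, Mir128-1 and Mir128-2. Mir124a-2 had −0.15 (15 and 18 counts) and Mir124a-3 had 0.01 (15 and 16 counts), and neither passed the test. Tested progenitor markers had a median of 0.16, with 2 of 3 higher. The endothelial Mir126a had −0.17. Tested hindbrain and trunk markers had a median of −0.31, with 2 of 4 lower in replicate 1. Mir10b (−0.15) and Mir196a-2 (0.05) did not pass the test. Of the erythroid markers Mir451a was lower in replicate 1, at −0.26, and Mir144 (0.14) did not pass. The liver miRNA Mir122 (0.10) did not pass either. The part of all these markers in the difference of the stretch was not tested.

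**Figure D4:**
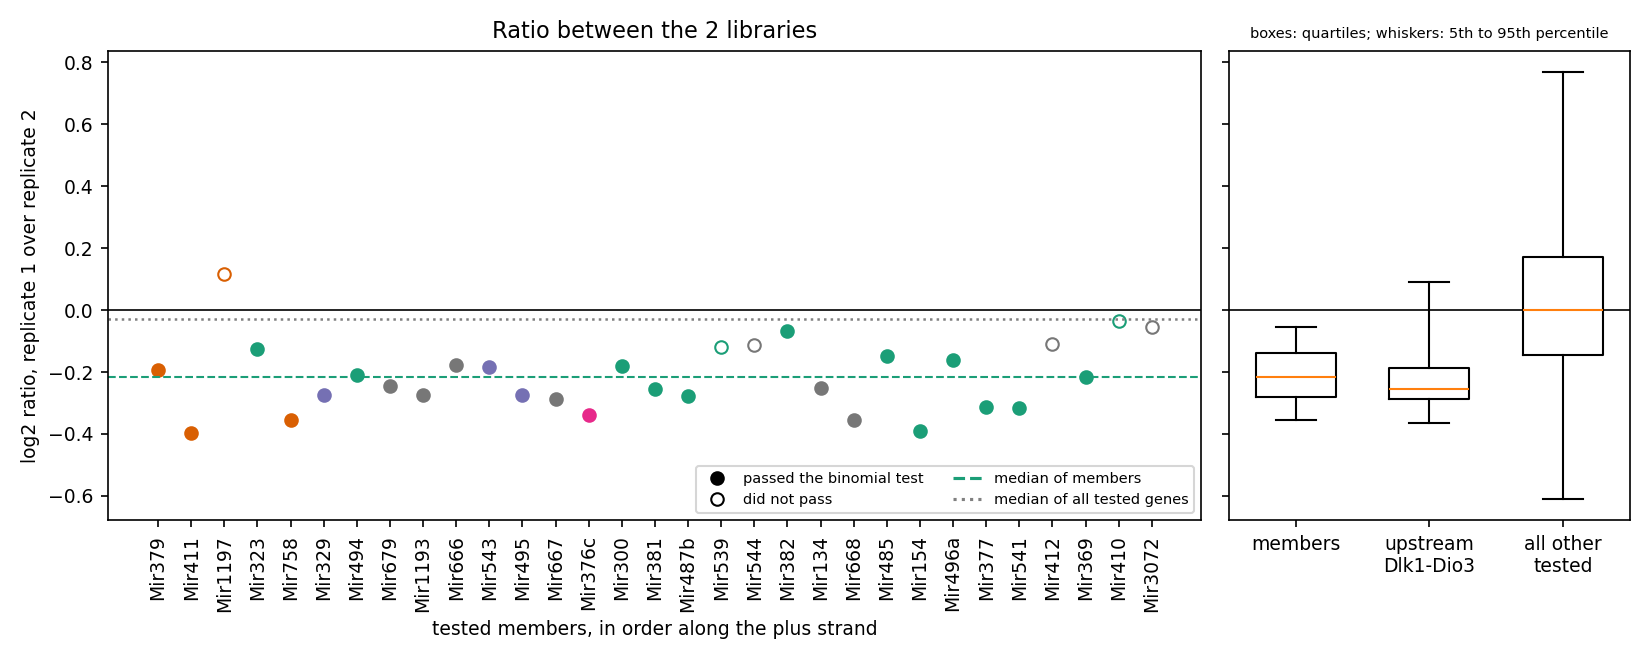
Left, log2 ratio of replicate 1 over replicate 2 for the 31 tested members in order, filled where the exact binomial test passed. Right, box plots of the same ratio for the members, the upstream Dlk1-Dio3 genes and all other tested genes (box: quartiles and median; whiskers: 5th to 95th percentile). All members but Mir1197 lie below 0, around a median of −0.22.

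No read was counted on the opposite strand of any of the 34 members in either library. Opposite-strand reads did gather at 4 genes annotated on the minus strand inside the same stretch, Mir299b, Gm25750, Gm25252 and Gm24321. At the same positions GENCODE M21 has the plus-strand hairpins Mir299a, Mir380, Mir376a and Mir409, which were not counted as genes of their own. On the plus strand Gm24321 had 52892 reads in replicate 1 and 68806 in replicate 2, more than Mir487b in each library. Gm25252, at Mir376a, had 10975 and 14797, above the 2069 and 2810 counts of Mir376c. If these reads were added, the stretch would hold 10.3% of the gene counts, and the miR-376 list 4.21% of the stretch in place of 0.898%, above the 1.55% of the miR-329 list.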

How the data were processed

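Small RNA of 2 forebrain pools was sequenced, with a size range under 30 (no unit named) and the mm10 assembly per the labels. The deposited values are raw counts of reads per gene of annotation M4, per the authors' file notes. Which programs trimmed, aligned and counted the reads is not given in the sources used here. Counts on the strand of the gene were used, 96.7% and 96.4% of those on either strand. The 4 tallies of reads in no gene were left out. Of all reads, 30.1% in replicate 1 and 28.8% in replicate 2 had several mapping places and entered no gene.

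Symbols, coordinates and hosts came from GENCODE M21 (mm10), which matched 1894 of 1973 identifiers without their version. All 34 members were found, 22 of them with the same version. CPM used the total of gene counts. For log2 ratios 0.5 counts were added and libraries scaled by TMM (edgeR 4.0.16 under R 4.3.3). The exact binomial test covered 401 genes whose mean count reached 10, at an adjusted p of 0.05. It was tested on simulated data that varied by counting only, so that check does not cover variation between pools. edgeR's own test was not used, since 1 group of 2 libraries leaves it no contrast. RNAfold 2.7.2 and Biopython 1.88 served for hairpins, Python 3.11.15, numpy 2.4.6, scipy 1.17.1 and matplotlib 3.10.9 for the rest.

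The members and lists were chosen with earlier results of these data known. The lists group hairpins by common family names. Genes given in full are the 3 highest and 3 lowest members, the 2 highest of each list, the first and last, and the 2 highest and 2 lowest ratios at a mean count of 100 or more. Alternatives were other scalings, strand counts, denominators, filters and pseudocounts, and each library alone.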

Additional observations from a re-analysis of the deposited data

Results flagged for a closer look

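Reads in the opposite-strand column, which the levels above do not use, were found at 4 minus-strand miRNA genes of the stretch, far over the 3 counts that a count of 0 allows. The mean level of these reads over the 2 libraries was 17746 CPM at Gm24321, 3755 CPM at Gm25252, 2807 CPM at Gm25750 and 2555 CPM at Mir299b. Together they numbered 80028 in replicate 1 and 104192 in replicate 2, which is 33.8% and 34.2% of the counts of the stretch and 71.8% and 77.6% of all opposite-strand gene counts of the libraries. On their own strand Gm24321, Gm25252 and Gm25750 had no count, and Mir299b had 6 and 10. The log2 ratios of replicate 1 over replicate 2 were −0.28, −0.33, −0.32 and −0.16 in the order of the levels, within the range of the members.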

How the results depend on the processing

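No paired analysis was possible because there is 1 group. With reads mapped to several places or to no gene in the total, the median member level was 286 CPM and the share of the stretch 3.95%. With the opposite-strand reads at 4 minus-strand genes added, an alternative chosen after seeing the data, the share was 10.3%. The ratio to the upstream genes, to which no opposite-strand reads were added, was then 2.83-fold. The parts of the miR-379, miR-329 and miR-376 lists were 19.1%, 1.55% and 4.21%. Without the highest member of each list the parts of the miR-379, miR-329, miR-154 and unlisted members were 12.3%, 0.951%, 77.7% and 9.09%. The miR-376 list has 1 member and gave no such value. The rank correlation of level with position was −0.11 among tested members and −0.15 to −0.13 in the libraries alone. Members lower in replicate 1 numbered 23 to 25 and none was higher under the scalings, filters and strand counts run, with the median ratio between −0.23 and −0.19. The share of all tested genes lower in replicate 1 ran from 12.3% without a filter to 32.5% at a mean count of 100 or more. Mir666 and Mir496a lost their call with total-count scaling (adjusted p = 0.11 each, exact binomial test) and without a filter on low counts (adjusted p = 0.073 each, exact binomial test). Genes made by several loci needed no removal, since no member shared a mature sequence in the table used. Members with few counts, such as Gm27379, are limited by depth.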

Other observations

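A 7-letter word, GUUGCCC, was found in the 5p arms of 5 members, Mir543, Mir495, Mir381, Mir496a and Mir377, and in no mature sequence of the 1025 other genes in the table. It was picked after the sequences were seen, as the word with the highest count of members, and was searched on the given strand. Of the 61 mature sequences 27 start with U and 23 with A. Of the 56 seeds 11 recur in mature miRNAs of other genes, such as that of miR-329-3p in miR-362-3p and that of miR-410-3p in miR-344d-3p and miR-344e-3p.

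Across the 29 tested members with a RefSeq hairpin, Spearman's rho of level was −0.10 with GC content, 0.11 with the folding energy per base from RNAfold and 0.07 with hairpin length. These are descriptions over genes that share their libraries, and relations of this size are no finding.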
